A study of Mus musculus with 20 samples.

Results

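The nuclei described here are barcodes with an open-chromatin profile marked by 5 neuronal genes, in single-cell ATAC-seq (scATAC-seq) libraries made at P5 and 12W from Nestin-EGFP+ cells, which were sorted out of the mouse dentate gyrus (DG). They were chosen by the share of each barcode's counts that lay in peaks over Neurod2, Bhlhe22, Tubb3, Dcx and Prox1, taking the gene body and 2 kb upstream. The top 10% of each library were kept, among barcodes whose counts in peaks lay above 10000 and below 100000. This gave 678 of 6785 barcodes at P5 and 1002 of 10029 at 12W, 1680 of 16814 together, out of 21359 in the depth window of the 3 scATAC-seq libraries. They are called marker-high nuclei below, and the comparison group in each library is the bottom 50% of the same ranking, 3392 barcodes at P5 and 5014 at 12W. The cells came from transgenic mice on a C57BL/6 background that carry EGFP under Nestin regulatory sequence, and were sorted for EGFP and viability at P5 (5 days after birth) or at 12 weeks, with no other treatment. The sort takes any cell in which the Nestin transgene is active, and vascular marker genes are open in many of the barcodes (values below). There is 1 library per age and assay, and how many mice each was made from is not given in the sources used here. For this reason no test was applied, and the intervals below are exact 95% intervals for counting error only.

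New granule neurons of the DG arise from neural stem cells (NSCs) through proliferating progenitors, and as they leave the cell cycle they switch on a cascade of basic helix-loop-helix (bHLH) transcription factors. These proteins bind short sequences called E-boxes and open chromatin at neuronal genes. Of the 5 genes, Neurod2 and Bhlhe22 encode bHLH factors of young excitatory neurons, Tubb3 encodes the neuronal beta-tubulin, and Dcx encodes doublecortin, a microtubule-binding protein of migrating neurons. Prox1 encodes a homeodomain protein that sets and keeps granule neuron identity, and is also known from other cell types, oligodendrocyte precursor cells (OPCs) among them.

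The sequences of regions that were more open in marker-high nuclei of both libraries are shown first, because the base sequence took no part in choosing the nuclei. Of the 10 regions with the highest smaller ratio of the 2 libraries, 200 bases around the centre are given for 5 that hold an E-box of the NeuroD and Neurog type (CAGATG, or CATCTG on the other strand) or a homeobox core (TAATTA). Capitals mark these motifs, and the bases are those of the plus strand of RefSeq GRCm38.p6, the build of the peaks. Across all 10 windows, 4 held the E-box, 5 held the homeobox core and 7 held at least 1 of these. In windows of the same length the corresponding shares of all 75026 tested regions away from promoters were 20.5%, 7.55% and 26.6%. The printed windows were picked for holding a motif.
Npsr1 intron, chr9:24178659-24178858: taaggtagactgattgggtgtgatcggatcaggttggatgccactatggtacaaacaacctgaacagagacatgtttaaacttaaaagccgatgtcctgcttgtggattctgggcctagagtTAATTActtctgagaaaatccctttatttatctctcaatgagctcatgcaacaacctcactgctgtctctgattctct
distal region nearest to Arrdc3, chr13:79698209-79698408: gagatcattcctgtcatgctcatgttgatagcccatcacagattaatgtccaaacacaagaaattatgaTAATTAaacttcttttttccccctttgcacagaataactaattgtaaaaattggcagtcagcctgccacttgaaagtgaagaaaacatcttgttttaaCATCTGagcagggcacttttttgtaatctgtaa
distal region nearest to Apob, chr12:7845797-7845996: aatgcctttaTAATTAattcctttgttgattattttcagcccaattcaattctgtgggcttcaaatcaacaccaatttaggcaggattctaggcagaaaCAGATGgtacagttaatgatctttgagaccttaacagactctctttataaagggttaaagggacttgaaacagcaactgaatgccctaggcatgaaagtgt
distal region nearest to Galnt18, chr7:111844550-111844749: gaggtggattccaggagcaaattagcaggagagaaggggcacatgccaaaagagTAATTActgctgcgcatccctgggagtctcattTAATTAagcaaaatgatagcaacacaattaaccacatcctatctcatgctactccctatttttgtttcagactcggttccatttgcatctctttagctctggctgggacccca
Tmem218 intron, chr9:37213356-37213555: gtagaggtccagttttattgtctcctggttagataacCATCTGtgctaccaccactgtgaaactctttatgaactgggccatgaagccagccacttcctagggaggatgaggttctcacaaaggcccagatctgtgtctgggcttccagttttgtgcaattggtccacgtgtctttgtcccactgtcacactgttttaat

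The intronic Npsr1 region (chr9:24178119-24179399) had 7.84 CPM in marker-high nuclei at P5 and 1.25 CPM in the bottom 50%. CPM of a region are a group's pooled counts per 1000000 of its counts in regions with a peak in both libraries. Regions within 100 kb of the 5 genes were left out. At 12W the Npsr1 region had 8.70 and 1.10 CPM, so the log2 ratio was 2.65 at P5 and 2.98 at 12W. Against glial barcodes of the 12W bottom 50%, defined below, it was 1.57 (2.92 CPM), and the 10 regions had ratios from 1.03 to 2.06. The region nearest to Arrdc3 (chr13:79697992-79698625), which lies 1185101 bp from any annotated start of a coding transcript, had 4.27 against 0.685 CPM at P5 and 3.03 against 0.355 CPM at 12W. The region in a Tmem218 intron (chr9:37213166-37213745) had log2 ratios of 2.53 and 2.82. All 10 regions were intronic or intergenic, and the lowest log2 ratio among them was 2.51. They rest on few counts, from 49 to 143 in the marker-high nuclei at P5 and from 70 to 244 at 12W.

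The values that chose the nuclei are given as a description. The share of counts in the 5 genes had a median of 60.0 per 100000 in marker-high nuclei at P5 and 58.9 at 12W, against 15.9 and 9.13 in the bottom 50%. The last barcode inside and the first outside both had 51.0 per 100000 at P5, and both had 49.3 at 12W, so the ranking has no step at this point. A marker-high nucleus had a median of 16 counts in the 5 genes in either library, and no nucleus had fewer than 6. Of the 678 nuclei at P5, 24 had counts at only 1 of the 5 genes, 102 at 2, 236 at 3, 221 at 4 and 95 at all 5. At 12W the corresponding numbers were 84, 207, 278, 278 and 155. Prox1 gave 46.2% of the score counts at P5 and 43.9% at 12W, and Neurod2 gave 9.02% and 8.73%. The most accessible of the peaks used in these libraries lay at the Prox1 start (chr1:190167582-190175942 at P5), where marker-high nuclei had 195 CPM and the bottom 50% had 63.5 CPM. Median depth was 25607 counts in marker-high nuclei and 30480 in the bottom 50% at P5. For 12W the medians were 25382.5 and 21974. The 2 libraries share 88 cell barcodes, and doublets were not called.

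Each gene was then left out in turn and the nuclei were rechosen on the other 4, so that its accessibility was no longer part of the choice. Neurod2 was higher in the rechosen top 10% than in the bottom 50%, at 30.4 against 15.5 CPM at P5, which is 1.96-fold (95% interval 1.71 to 2.25). At 12W it was 33.3 against 8.47 CPM, 3.93-fold (3.46 to 4.46). Tubb3 was 1.61-fold higher at P5 (1.47 to 1.77) and 2.82-fold at 12W (2.59 to 3.08). Dcx was 1.30-fold higher at P5 (1.16 to 1.46) and 4.12-fold at 12W (3.63 to 4.67). The remaining genes did not follow this pattern. Prox1, when left out, was at 143.5 CPM in the top 10% and 143.0 CPM in the bottom 50% at P5, a ratio of 1.003 (0.946 to 1.06), and it was 1.55-fold higher at 12W (1.46 to 1.64). Bhlhe22 was 1.23-fold higher at P5 (1.10 to 1.37) but lower at 12W, at 58.6 against 97.5 CPM, a ratio of 0.601 (0.560 to 0.644).

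**Figure D1:**
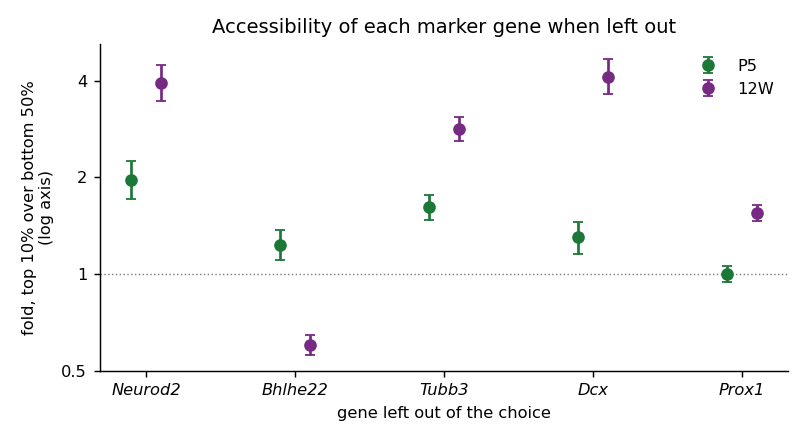
Fold of pooled accessibility (log axis) of each marker gene between the top 10% and the bottom 50% of barcodes, ranked on the other 4 genes, in the P5 and 12W libraries. Bars are exact 95% intervals for counting error. Neurod2, Tubb3 and Dcx lie above 1 in both libraries, Prox1 lies at 1.003 at P5, and Bhlhe22 lies at 0.601 at 12W.

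A second check used chromatin from the other library. For each barcode, the share of its counts was taken in regions that were at least 2-fold higher in the marker-high nuclei of the other age than in glial barcodes of that age's bottom 50% (10475 regions taken from 12W and 11934 taken from P5). At P5 the median share was 6.34% in marker-high nuclei and 2.03% in the bottom 50%, and 81.4% of marker-high nuclei (78.3 to 84.3) lay above the bottom median. At 12W the medians were 8.99% and 1.07%, and 88.3% of marker-high nuclei (86.2 to 90.2) lay above the bottom median. At 12W so did 83.1% of the glial barcodes of the bottom 50% (81.0 to 85.0), with a median share of 1.59%, so at this age the bottom median does little to part marker-high nuclei from glial barcodes. A cut at 4%, set after the values were seen, left 462 of 678 marker-high nuclei above it at P5, or 68.1% (64.5 to 71.6), and 727 of 1002 at 12W, or 72.6% (69.7 to 75.3). The cut divides a range, and 43 nuclei at P5 and 45 at 12W lay between 3% and 5%. The bottom 50% held 726 barcodes above 4% at P5 (21.4%) and 493 at 12W (9.83%). The regions were called with the same 5 genes in the other library, so this measure does not tell immature neurons from mature or GABAergic ones. The nuclei are therefore named by their rule.

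**Figure D2:**
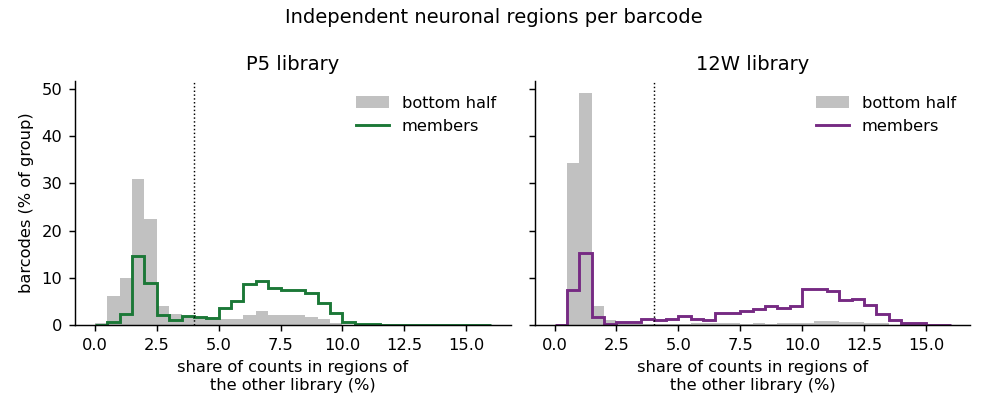
Percent of barcodes of each group (y axis) by their share of counts, in percent (x axis), in regions called in the other library, for the P5 and 12W libraries. Filled bars are the bottom 50% and lines are marker-high nuclei (members in the plot). The dotted line is at 4%, above which 68.1% of marker-high nuclei lie at P5 and 72.6% at 12W.

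The marker-high nuclei at or under 4%, 216 at P5 and 275 at 12W, differed from those above 4% in marker lists of other cell types. These lists were not the same at the 2 ages. The nuclei were split by their share in neuronal regions, and the share of all genes higher in either group was not taken. Counts of listed genes between these groups are therefore given as values only. At P5 the 11 OPC marker genes summed to 1965 CPM in these nuclei, against 695 CPM in those above 4% and 1435 CPM in the bottom 50%, and each of the 11 was higher in them than in those above 4%. The NSC and astroglial markers were at 2236 CPM in these nuclei, higher than the 1641 CPM above 4% but lower than the 2393 CPM in the bottom 50%. Cycling markers were at 530 against 434 CPM above 4%, and ependymal markers at 136 against 118 CPM. Vascular markers were at 787 against 635 CPM, but at 535 against 577 CPM without Cspg4, which is also an OPC marker. The GABAergic, Cajal-Retzius and microglial lists were lower than above 4%. Sox10, a transcription factor of the oligodendrocyte lineage, was at 162 against 28.7 CPM. Olig2, a bHLH factor of the same lineage, was at 230 against 64.3 CPM, and Gpr17, a receptor of precursors committed to become oligodendrocytes, was at 110 against 12.4 CPM. Prox1 was at 353 CPM in the nuclei at or under 4% and 260 CPM in those above, and Dcx at 77.5 and 65.5 CPM, whereas Neurod2 was at 24.7 and 69.2 CPM. Tubb3 and Bhlhe22 were also lower in the nuclei at or under 4%.

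At 12W the 23 vascular marker genes summed to 3019 CPM in the marker-high nuclei at or under 4%, 895 CPM in those above and 2970 CPM in the bottom 50%. Of the 23 genes 19 were higher in the nuclei at or under 4% than in those above, with no share over all genes to set beside this count. Pdgfrb, the receptor for platelet-derived growth factor on pericytes, was at 545 against 98.7 CPM, and Rgs5, a regulator of G-protein signaling in pericytes, at 261 against 39.4 CPM. Endothelial genes went both ways. The tight junction gene Cldn5 was at 4.64 against 12.5 CPM and the adhesion gene Pecam1 at 47.4 against 91.7 CPM, whereas the receptor genes Flt1 and Tek were at 271 against 81.2 and 56.1 against 11.4 CPM. OPC markers summed to 761.7 CPM against 595 CPM, but 8 of the 11 were lower. Cspg4, which is in the vascular list too, was at 371 against 65.8 CPM, and without it the OPC sum was 391 against 529 CPM. Bhlhe22 was at 295 CPM in these nuclei and 89.9 CPM in those above 4%, and it was the only 1 of the 5 genes to be higher in them, while Neurod2 was at 17.0 and 61.7 CPM. Of the 275 nuclei 78 had counts at only 1 of the 5 genes (28.4%), compared with 6 of the 727 above 4%. Their median depth was 16194 counts, against 30789 above 4%. These values move with every comparison of all marker-high nuclei below, and their part in those results was not tested.

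The bottom 50% also differed between ages. Of its barcodes, 3286 of 3392 at P5 but 1358 of 5014 at 12W had a higher share of counts in NSC, astroglial and OPC marker genes than in vascular ones. These are called glial barcodes, and ratios at 12W are against the whole bottom 50% unless glial barcodes are named. At 12W the glial barcodes themselves held 34.6% above the 4% cut.

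Of 10 further immature neuron markers that the choice did not use, 7 were past 1.5-fold higher in both libraries, with either comparison at 12W. Over all 16488 coding genes tested for gene activity (the sum of counts in peaks over the gene body and 2 kb upstream), 3.19% were past 1.5-fold higher in both libraries and 2.29% lower. With glial barcodes at 12W the shares were 2.02% and 1.84%. Because the nuclei were chosen on the same chromatin profiles, nothing is read from these counts beyond the values.

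Neurod1, a bHLH factor that drives granule neuron differentiation, was at 88.1 CPM in marker-high nuclei and 39.5 CPM in the bottom 50% at P5. At 12W it was at 89.9 CPM, against 15.8 CPM in the bottom 50% and 40.2 CPM in glial barcodes. Its log2 ratio was 1.16 at P5, 2.51 for 12W and again 1.16 against glial barcodes of 12W. The Neurod1 sum takes in 2 peaks at P5 and 1 peak at 12W, called separately. Its CPM at the 2 ages may therefore not cover the same bases. Stmn2, which encodes a microtubule-destabilizing protein of growing axons, was at 49.4 against 20.4 CPM at P5 and 57.5 against 9.78 CPM at 12W, where the log2 ratio of 2.56 was 1.14 against glial barcodes. Neurod6, a bHLH factor of excitatory neurons, was at 16.6 against 6.41 CPM and 19.5 against 2.95 CPM. Nhlh1, a bHLH factor of newly born neurons, had log2 ratios of 1.25 and 2.43, and Eomes, the T-box factor of intermediate progenitors, had 0.97 and 2.60. Igfbpl1, a secreted protein gene typical of neuroblasts, had 0.79 and 2.44, and Elavl3, a neuronal RNA-binding protein, had 0.67 and 1.27.

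Sox11, Calb2 and Elavl4 did not reach 1.5-fold at P5. Sox11, an SRY-box factor of young neurons, was at 123 against 108 CPM at P5 (log2 ratio 0.19) and 87.1 against 25.0 CPM at 12W, where glial barcodes had 66.0 CPM. Calb2, the calretinin gene of a brief stage of granule neuron maturation, had a log2 ratio of 0.46 at P5, and Elavl4, an RNA-binding protein gene of neurons, had 0.44.

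In the nuclei above 4%, set against glial barcodes at or under 4%, ratios of Stmn2, Neurod6, Nhlh1 and Neurod1 were larger. At P5 Sox11 had a log2 ratio of 0.29 and Elavl4 0.52 in this contrast, still short of 1.5-fold, and Calb2 had 0.70. Stmn2 had log2 ratios of 2.84 at P5 and 4.16 at 12W, Neurod6 2.95 and 4.05, Nhlh1 2.36 and 3.70, and Neurod1 2.24 and 3.45. The cut is itself placed on neuronal regions of the other library, which hold some of these genes' peaks, so larger ratios follow in part from the choice. In this contrast 6.45% of all coding genes were past 1.5-fold higher in both libraries and 6.96% lower.

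Of 25 neurogenic transcription factors, 10 were past 1.5-fold higher in both libraries and none lower, with median log2 ratios of 0.42 at P5 and 1.804 at 12W (0.66 against glial barcodes), where the medians over all genes were -0.01, -0.02 and -0.08. Neurod4, a bHLH factor of neuronal commitment, had the highest smaller ratio, at 12.0 against 4.48 CPM at P5 and 25.5 against 3.56 CPM at 12W. Zeb2, a zinc finger repressor, was at 187 against 213 CPM at P5 and 322 against 413 CPM at 12W, and Klf7 had log2 ratios of 0.03 and -0.54. Of 28 cytoskeleton and axon guidance genes, 3 were past 1.5-fold in both libraries (Stmn2, Cd24a and Crmp1) and none lower. Against glial barcodes at 12W 2 were past it (Stmn2 and Crmp1), and Cd24a, a surface glycoprotein gene, was at 54.6 against 56.6 CPM (log2 ratio -0.05). For nuclei above 4% against glial barcodes at or under 4% Cd24a had a log2 ratio of 0.25 at 12W. Crmp1, a collapsin response mediator, was at 117 against 76.7 CPM at P5 and 95.7 against 22.3 CPM at 12W (51.3 CPM in glial barcodes). Robo2, an axon guidance receptor, and Gap43, a growth cone protein, had log2 ratios of 0.52 at P5 and 2.23 and 2.43 at 12W, or 0.76 and 1.02 against glial barcodes. Tubb2a had -0.19 and -0.29.

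Of 12 neuronal RNA-binding protein genes, 4 were higher in both libraries and 3 with glial barcodes at 12W. Srrm4, which drives inclusion of neuronal microexons, was at 149 against 80.7 CPM at P5 and 159 against 41.4 CPM at 12W. Against the 108 CPM of glial barcodes 1.5-fold was not reached (log2 ratio 0.56). For nuclei above 4% against glial barcodes at or under 4% the log2 ratio of Srrm4 at 12W was 1.65. Rbfox3, which encodes the NeuN antigen of maturing neurons, was at 391 against 253 CPM and 405 against 109 CPM. Rbfox2, which is expressed more broadly, had log2 ratios of -0.11 and -0.50. Of 29 synapse and excitability genes, 4 were higher in both, and 3 with glial barcodes at 12W. They include Slc17a6, the vesicular glutamate transporter 2 gene, with 41.9 against 22.1 CPM at P5 and 56.7 against 8.90 CPM at 12W, and the AMPA receptor subunit gene Gria1 (log2 ratios 0.68 and 2.25). The median of this list was 0.23 at P5 and 1.12 at 12W, and 0.36 against glial barcodes. Syn1, which encodes a synaptic vesicle protein, was at 29.4 against 30.2 CPM at P5 and 24.6 against 32.0 CPM at 12W. Of 20 neuroblast and granule neuron maturation genes, 5 were higher in both with either comparison (Igfbpl1, Camk4, Tac2, Islr2 and Gal). Among them Tac2, a tachykinin precursor gene, had 25.6 against 15.4 CPM and 33.9 against 7.99 CPM.

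Of 13 GABAergic marker genes tested, 3 were past 1.5-fold in both libraries (Dlx1, Slc32a1 and Sp8), and the median log2 ratio was 0.23 at P5 and 1.66 at 12W, or 0.67 against glial barcodes. With glial barcodes 2 were past it, and Sp8 had a log2 ratio of 0.40. For nuclei above 4% against glial barcodes at or under 4% the log2 ratio of Sp8 at 12W was 0.96. Gad1, which encodes the enzyme that makes GABA, was at 103 against 86.7 CPM at P5 and 79.4 against 20.02 CPM at 12W (48.4 CPM in glial barcodes). The summed GABAergic list was at 487 CPM in marker-high nuclei and 430 CPM in the bottom 50% at P5, and at 503 and 174 CPM at 12W. Of 7 Cajal-Retzius marker genes 1 was past 1.5-fold in both libraries. This was Reln, which encodes an extracellular guidance protein and had log2 ratios of 0.67 and 2.05, or 0.84 against glial barcodes at 12W. Without marker-high nuclei in the top 5% of their library by share over the GABAergic list, 632 nuclei at P5 and 844 at 12W were left, and each count of regions below stayed within 1.5 times.

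Of 23 NSC and astroglial marker genes, none was past 1.5-fold higher in both libraries and 2 were lower (6 with glial barcodes at 12W), among them Hes1. Hes1, a Notch target that represses neurogenic bHLH genes, was at 79.0 against 143 CPM at P5 and 80.7 against 194 CPM at 12W, with 171 CPM in glial barcodes. The list median was -0.47 at P5, 0.38 at 12W and -0.33 against glial barcodes at 12W, so the direction at 12W depended on the comparison barcodes. Glial barcodes were chosen by their shares over the NSC and astroglial, OPC and vascular lists. Ratios of these lists against glial barcodes follow in part from that choice, and nothing is read from them beyond the values. Sox2, an SRY-box factor of NSCs, had log2 ratios of -0.11 at P5, 1.75 at 12W and 0.23 against glial barcodes. Of 11 OPC genes 1 was lower in both (Cspg4; none with glial barcodes), and the medians were -0.45, 0.89 and 0.06. Of 23 vascular genes 5 were lower in both (2 with glial barcodes), with medians of -0.14, -1.12 and 0.00. Of 10 cycling genes none was past 1.5-fold in both libraries, and Mki67, a marker of proliferation, was at 36.7 against 37.8 CPM at P5 and 29.2 against 31.6 CPM at 12W. Of 6 microglial genes 1 was higher in both and 1 lower, and of 5 ependymal genes 1 was higher. The higher genes were Tmem119, at 15.1 against 7.24 CPM, and Gmnc, at 13.9 against 8.38 CPM at P5. Neither was past 1.5-fold against glial barcodes at 12W, where Tmem119 had a log2 ratio of 0.44 and Gmnc of -0.38.

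**Figure D3:**
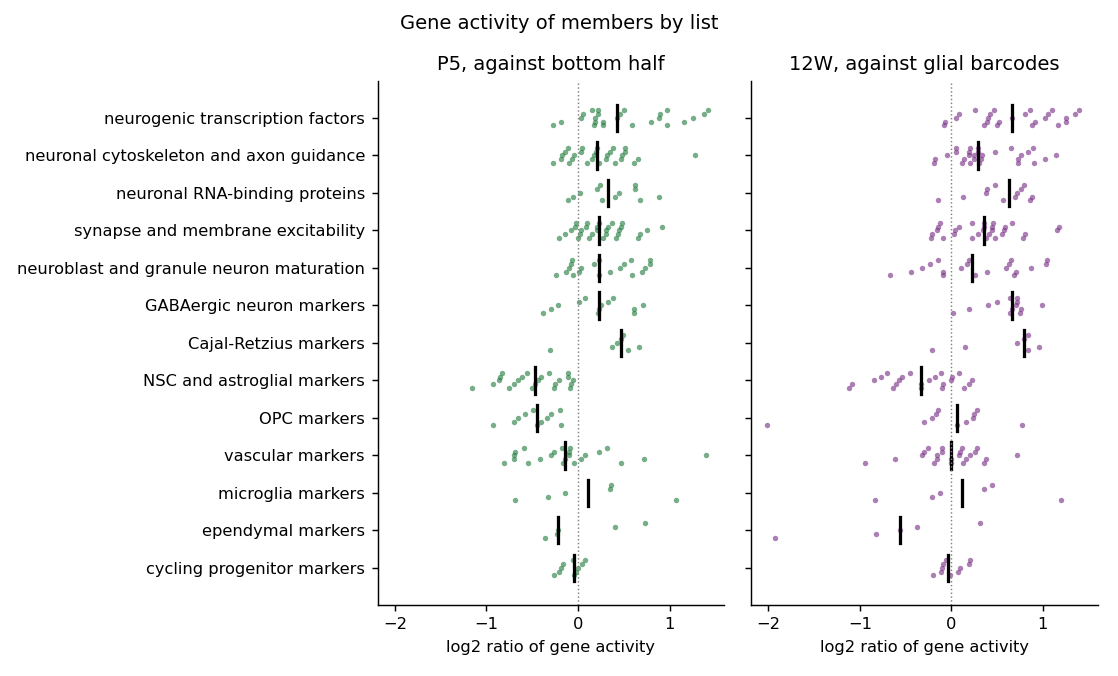
Log2 ratio of gene activity (x axis) of each gene of 13 lists (rows) between marker-high nuclei and the bottom 50% at P5, and between marker-high nuclei and glial barcodes at 12W. Each point is a gene and each black line is the list median. Medians of the neurogenic transcription factors were 0.42 and 0.66, and those of the NSC and astroglial markers were -0.47 and -0.33. Glial barcodes were chosen by the NSC and astroglial, OPC and vascular lists, so the 12W ratios of these lists follow in part from that choice.

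Genome-wide, 12.4% of 104074 peaks tested were at least 2-fold higher in marker-high nuclei at P5 and 9.88% were lower (12889 and 10286 peaks). At 12W 37.2% of 128484 peaks were higher and 24.7% lower against the bottom 50%, and 9.61% were higher and 9.62% lower against glial barcodes. The median log2 ratio over all peaks was -0.04 at P5 and 0.25 at 12W, and when ratios were taken from these medians 13610 peaks at P5 and 42271 at 12W were higher. The vascular list of the bottom 50% at 12W moves with these counts, and 34.6% of the glial barcodes at 12W lay above the 4% cut. The part of either in the counts was not tested beyond the values given. Nuclei above 4%, set against glial barcodes at or under 4%, had 33904 of 119824 peaks higher at 12W and 33342 lower. The cut is placed on neuronal regions of the other library, so these counts follow in part from the choice. Across 88706 regions with a peak and enough counts in both libraries, 10955 (12.3%) were higher in both and 3171 (3.57%) lower in both. Of the regions higher at P5, 92.9% were also higher at 12W against the bottom 50% and 39.2% against glial barcodes, where 42.3% and 9.28% of all these regions were called. The log2 ratios at P5 and 12W had a Pearson correlation of 0.62 across these regions, or 0.67 with glial barcodes at 12W. Regions are not replicates, and neighbouring regions share nuclei and depth.

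Regions that were more open in marker-high nuclei lay away from promoters. Of the 10955 regions higher in both libraries 1.45% had their centre within 1 kb of a coding transcript's start, compared with 15.4% of all tested regions. A further 54.4% were intergenic (39.6% of all) and 41.2% were intronic (40.7% of all), and the median distance to the nearest start was 65.8 kb against 24.6 kb. Regions lower in both were also rarely at promoters (4.07%), and more of them were intronic (52.2%). The median GC content of the central 300 bases was 47.3% in higher regions, 49.0% in lower regions and 49.7% in all.

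Among distal regions, those outside promoters, the central 300 bases held CAGATG on either strand in 46.3% of 10796 regions higher in both libraries, in 23.5% of 3042 lower in both and in 28.2% of all 75026 tested. Among the 4543 distal regions that were also higher against glial barcodes at 12W, the share was 47.6%. The share climbed with the P5 ratio, from 24.7% of regions within 1.5-fold to 33.0%, 45.1% and 57.5% in successive bins above it. At 12W against glial barcodes it was 26.1% within 1.5-fold, 40.8% between log2 ratios of 1 and 2, and 39.7% of the 73 regions above. A different E-box, CATATG, was in 8.37% of higher distal regions and 5.24% of all, whereas CAGGTG, the type bound by Tcf4 and Zeb proteins, was in 18.4% and 18.3%. The homeobox core TAATTA was in 16.4% of higher regions, 4.83% of lower regions and 10.7% of all. The NFI core TTGGCA was in 34.9%, 20.8% and 26.2%. It was, however, also in 29.6% of distal regions with a P5 log2 ratio below -2, so it did not follow the ratio in 1 direction. TEAD sites (ACATTCC) went the other way, at 3.83% of higher, 8.02% of lower and 4.50% of all. The CTCF core CCACNAGG was in 4.58%, 5.19% and 7.34%. Other motifs searched are given in the methods. A motif match describes the sequence and does not show binding, and base composition differs between these sets.

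**Figure D4:**
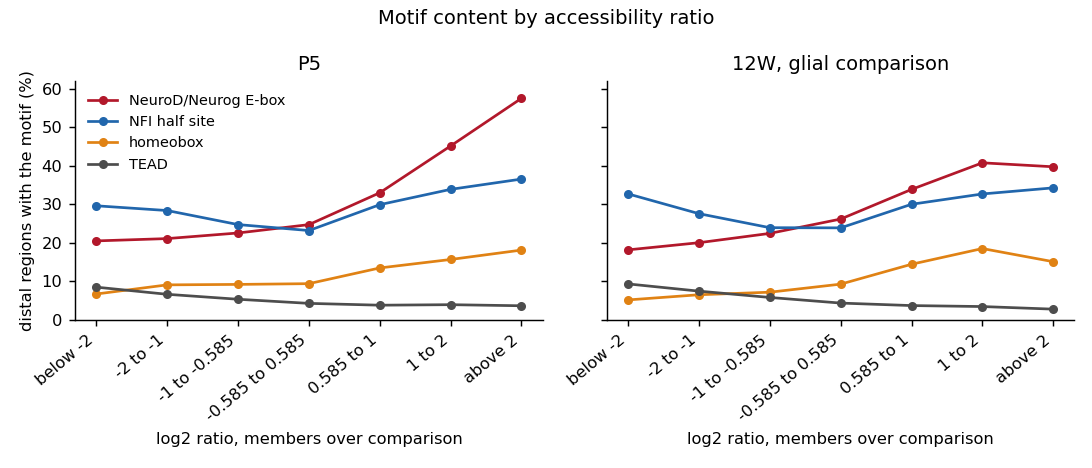
Percent of distal regions (y axis) whose central 300 bases hold a motif, by the log2 ratio of accessibility between marker-high nuclei and comparison barcodes (x axis, bins), at P5 and at 12W against glial barcodes. Lines are the NeuroD and Neurog E-box, the NFI site, the homeobox core and the TEAD site. The E-box goes from 20.5% in the lowest bin to 57.5% in the highest at P5.

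Of the 10 regions with the lowest ratios in both libraries, the most closed by the larger of the 2 ratios was an intronic St3gal3 region (chr4:117984806-117985872), with 0.438 against 4.89 CPM at P5 and 1.18 against 12.2 CPM at 12W. A region 66145 bp from the start of Sypl (chr12:33019947-33020711) had 0 counts in marker-high nuclei at P5 and 2.08 CPM in the bottom 50%, at least 12.7-fold lower with a floor of 3 counts over the group, and 0.285 against 3.16 CPM at 12W, with 8.55 CPM in glial barcodes. An intergenic region (chr7:145007856-145009344), 68731 bp from the start of the cyclin D1 gene Ccnd1, had 0.0548 against 1.71 CPM and 1.64 against 11.4 CPM. Its P5 value rests on 1 count in marker-high nuclei, and that of the St3gal3 region on 8 counts. The 10 regions had from 0 to 15 counts in marker-high nuclei at P5. At 12W 8 of these 10 had log2 ratios between -0.90 and -1.49 against glial barcodes, weaker than against the whole bottom 50%. The Sypl region (-4.74 against -3.30) and a region nearest to Gm20481 (-3.49 against -2.57) were lower still against glial barcodes.

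At 24W the same rule took 454 of 4545 barcodes. Of the 10955 regions higher in both younger libraries, 4108 had a 24W peak with enough counts, compared with 2993 of the 3171 lower regions. A region that is open mainly in the top 10% can pass the peak call and this filter largely through that group's own counts, so the shares that follow are conditioned on it and nothing is read from them. Of the 4108 regions, 4055 (98.7%) were at least 2-fold higher in the 24W top 10%, and 34.7% of all 61209 regions were. The median log2 ratio was 3.67, against 0.32 for all. Of the 2993 lower regions 983 (32.8%) were lower at 24W, and 3.79% of all were. The 24W top 10% had 29.6 CPM at Neurod2 and 19.9 CPM at Dcx, where the P5 nuclei had 56.1 and 69.1 CPM and the 12W nuclei 53.8 and 52.5 CPM. Peaks were called separately in each library, and Dcx had 7 peaks at P5 and at 12W but 5 at 24W. These CPM therefore do not cover the same bases. In the 24W top 10% 80 of 454 barcodes had counts at only 1 of the 5 genes, and Bhlhe22 gave 38.5% of the score counts.

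Messenger RNA was compared with the same rule in the scRNA-seq libraries of matching ages. There the top 10% of cells by the share of unique molecular identifiers (UMIs) in the 5 genes, 1368 cells at P5 and 535 at 12W, were set against the bottom 50%. At 12W all 2675 cells of the bottom 50% had 0 UMIs in the 5 genes, so that ties at 0 were broken by the order of cells in the file. At P5 5342 of the 6842 cells had 0 UMIs, so ties at 0 did not set the bottom 50% there. Median depth was 4677.5 UMIs in the top 10% and 4700 in the bottom 50% at P5, but 4298 and 2017 at 12W. Neurod1 RNA was at 878 against 33.8 CPM at P5 and 1124 against 19.4 CPM at 12W. Igfbpl1 RNA was at 3937 against 220 CPM and 4687 against 141 CPM. Sox11, whose gene activity differed little at P5, was at 2173 against 200 CPM in RNA. Median log2 ratios of RNA were 2.60 at P5 and 3.66 at 12W for the neurogenic factors, and -2.29 and -3.41 for the NSC and astroglial markers. The vascular list had -3.15 and -3.94, and the OPC list -1.37 and -3.20. The GABAergic list had 1.22 over 10 genes at P5 and 4.79 over 9 genes at 12W. The maturation list had only 0.15 at P5 and 1.47 at 12W. Reln, whose activity was higher, had an RNA log2 ratio of -1.37 at P5 (10 UMIs in the top 10% and 157 in the bottom 50%). Across 13288 genes at P5 the Pearson correlation of the log2 ratios of activity and RNA was 0.49 (Spearman 0.44). Across 11771 genes at 12W it was 0.54 (0.45), or 0.47 (0.37) against glial barcodes. Genes are not independent replicates, and the cells of the 2 assays are not the same cells.

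Between the ages, 14.6% of 98514 regions with a peak in both libraries were at least 2-fold higher in marker-high nuclei at 12W than at P5 and 7.66% were lower (14405 and 7550). Age and library cannot be told apart here. In the bottom 50% 59.7% of the regions higher at 12W and 84.1% of those lower also passed 2-fold in the same direction. The share of all 98514 regions that did so in the bottom 50% was not taken, so nothing is read from these shares. Peaks were called separately in each library, and the regions called higher at 12W were covered by P5 peaks over a median of 43.9% of their length and by 12W peaks over 100%. Where the peaks of each library covered at least 80% of the region, 1702 of 54168 regions (3.14%) were higher and 1860 (3.43%) lower. In marker-high nuclei above 4%, 10.4% of all tested regions were higher and 4.67% lower. Over covered regions in these nuclei, 1955 of 50472 were higher and 1677 lower.

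The regions of largest difference were unevenly covered by peaks. The 5 most raised at 12W had 0 counts at P5 and include introns of Lhfp (chr3:53051082-53061007) and Aspn (chr13:49542961-49550029), the latter a gene of connective tissue cells. They had 17.8 and 15.2 CPM at 12W, but 6.75 and 3.67 CPM in the nuclei above 4% and 73.0 and 68.4 CPM in the bottom 50%, and P5 peaks spanned 96 of 9926 bp and 401 of 7069 bp. The 5 most reduced had 0 counts at 12W and include the promoter of Neu4 (chr1:94019792-94021268) and a region 18468 bp from the start of Bmp4 (chr14:46408486-46409787). These had 6.62 and 6.79 CPM in all marker-high nuclei at P5, but 2.47 and 0.695 CPM in those above 4% and 8.75 and 13.5 CPM in the bottom 50%, and 12W peaks spanned 36 and 29 bp of them. Of the regions covered to at least 80% in both libraries, those with the largest differences in all marker-high nuclei and in those above 4% were looked up after the values were seen. An intronic Tmco4 region (chr4:139042479-139043135) had 0.493 CPM at P5 against 5.45 CPM at 12W (0.618 against 5.85 CPM above 4%), while the bottom 50% differed by -0.78 on the log2 scale. An intronic Alk region (chr17:72474126-72474751) had 0.547 and 3.53 CPM, and the bottom 50% differed by -2.04. An intronic Cacna1c region (chr6:118827398-118828305), in the gene of an L-type calcium channel, was at 9.47 CPM at P5 against 2.10 CPM at 12W, with a bottom 50% difference of -1.32.

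Gene activity was also compared between ages. It sums peaks that were called separately in each library, so its CPM at the 2 ages may not cover the same bases. Over all 16407 genes tested, 6.2% were past 1.5-fold higher at 12W and 7.48% lower, and 4.77% and 6.38% in nuclei above 4%. For the neuronal lists the median log2 difference, 12W minus P5, in marker-high nuclei lay between -0.11 for the cytoskeleton list and 0.15 for the neurogenic factors, against -0.18 over all genes. Of 25 neurogenic factors 3 were past 1.5-fold higher and none lower, among them Neurod4 (1.12) and Nhlh1 (1.08). Of 20 maturation genes 2 were higher and 3 lower, and 2 and 0 above 4%. The 5 marker genes had a median of -0.08. OPC markers had -0.95, with 9 of 11 past 1.5-fold lower at 12W, and -0.28 with 3 of 11 in nuclei above 4%. Vascular markers had 0.47 in all marker-high nuclei and 0.47 above 4%, with 11 and 10 of 23 past 1.5-fold higher. NSC and astroglial markers had 0.10 with 2 of 23 past 1.5-fold higher, and 0.26 with 7 of 23 in nuclei above 4%. Summed, vascular markers were at 813 CPM at P5 and 2970 CPM at 12W in the comparison group. In marker-high nuclei they were at 680 and 1270 CPM. OPC markers were at 1435 and 701 CPM in the comparison group, and at 1070 and 624 CPM in marker-high nuclei. NSC and astroglial markers were at 2393 and 1964 CPM in the comparison group, but at 1817 and 2243 CPM in marker-high nuclei. The part of these lists, or of separately called peaks, in the differences between ages was not tested.

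**Figure D5:**
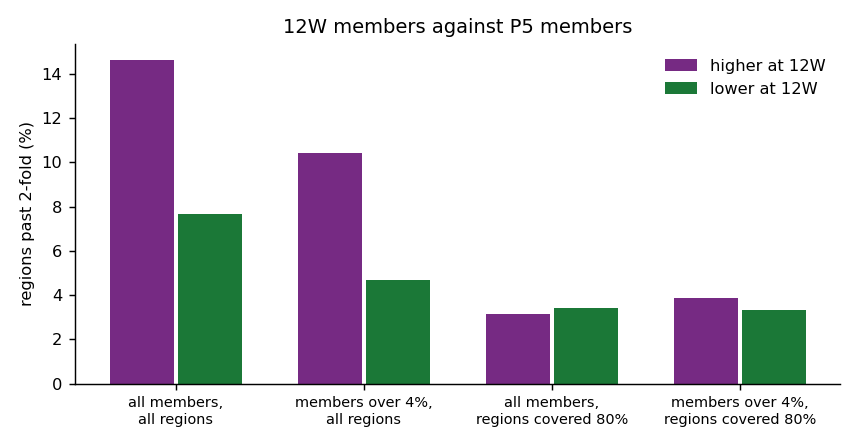
Percent of tested regions at least 2-fold higher or lower in marker-high nuclei at 12W than at P5 (y axis, from 0), for all marker-high nuclei or those above 4%, and for all regions or those covered to at least 80% by the peaks of each library. With all nuclei the shares are 14.6% and 7.66% over all regions, and 3.14% and 3.43% over covered regions. In nuclei above 4%, 1955 of 50472 covered regions were higher and 1677 lower.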

How the data were processed

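For scATAC-seq the authors deposited, for every peak and barcode, raw cut-site counts from the ATAC version of Cell Ranger on mm10 (GRCm38), with peaks called in each library separately. The scRNA-seq values are raw UMI counts per gene and barcode deposited by the authors. The P5 library holds 256859756 counts, the 12W library 315005811 and the 24W library 201338852, and 80.6% to 88.3% of these are in the barcodes kept. Most values (89.2% to 91.8%) are even, since a fragment has 2 cut sites, so intervals of folds were computed on counts divided by 2. Doublets were not called, and 0 columns were left unused.

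The members and lists were chosen with earlier results of these data known. Counts were pooled per group. Gene activity and the peaks of a single library were scaled to the sum of peaks over 100 kb from the 5 genes. Regions of both libraries were scaled to the sum of regions with a peak in both. Those within 100 kb of the 5 genes were left out of this sum, except between ages. CPM of the 5 genes, of summed lists and of listed genes in nuclei above or under 4% were scaled to all counts in peaks instead. Shares of barcodes have exact Clopper-Pearson intervals. Log2 ratios have 1 count added. A region was tested with 20 or more expected counts in the pool and called at 2-fold, and a gene at 1.5-fold. Regions are overlapping peaks of the P5 and 12W libraries, merged. Genes are those of GENCODE M21. The computation of ratios was checked on simulated pools with known folds. These pools held no differences between barcodes and no choice of nuclei, so they check the arithmetic only. For RNA, cells were kept from 1000 UMIs and 500 genes upward, with no more than 10% of UMIs from mitochondrial genes. Listed genes named are up to 5 with the highest and up to 3 with the lowest smaller ratio of the 2 libraries, and regions named are the 10 at each end. Between ages 5 at each end were taken, of which some are printed. The other motifs searched were the RFX site GTTGCCA, MEF2 CTAAAAATA, SOX ACAATGG, AP-1 TGACTCA, ETS CCGGAAGT, OCT ATGCAAAT, GC box GGGCGGG, EBF TCCCNNGGG and CRE TGACGTCA, all on both strands. The software was Python 3.11.15, pandas 2.3.3, scipy 1.17.1, numpy 2.4.6 and matplotlib 3.10.9. Alternatives were other shares, folds, depths, filters and comparison barcodes. The bulk libraries and the 24W scRNA-seq library were not used here. Results for some named items are not reported here.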

Additional observations from a re-analysis of the deposited data

Results flagged for a closer look

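Of the regions tested in both libraries, 46 were at least 2-fold higher in marker-high nuclei at P5 and at least 2-fold lower at 12W, and 648 were lower at P5 and higher at 12W. Against glial barcodes at 12W these numbers were 17 and 39. Bhlhe22, when left out of the ranking, was 1.23-fold higher in the top 10% at P5 and had a ratio of 0.601 at 12W. These differences between the ages were not tested, since there is 1 library at each.

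The barcodes ranked between the top 10% and the bottom 50%, which the main comparisons did not use, also carried neuronal regions of the other library. The share above 4% was 48.8% of 2715 barcodes at P5 (46.9 to 50.7) and 43.8% of 4013 at 12W (42.3 to 45.4), against 21.4% and 9.83% in the bottom 50%. In numbers these are 1326 barcodes at P5 and 1759 at 12W, more than the 462 and 727 marker-high nuclei above 4%.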

How the results depend on the processing

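No paired analysis was possible because each comparison sets groups of barcodes of 1 library, or 2 libraries, against each other. Of 104 planned values for the counts, shares and correlations, 63 stayed within 1.5 times or within their interval and 41 were counted as moved. The 41 include the correlations of activity and RNA, which were counted as moved with no limit applied. Counts below are given as higher then lower. In the top 5% they were 7804 higher at P5, 6705 and 2058 in both libraries, and 8579 and 4550 between ages, with 84.4% (P5) and 91.6% (12W) of nuclei above the bottom median of independent regions. At 1.5-fold they were 21406 and 22723 at P5, 17930 and 7415 in both, and 24496 and 16786 between ages. At 3-fold they were 4061 and 3155 at P5, 19159 lower at 12W, 3329 and 920 in both, and 7564 and 2776 between ages. Thinned to 10000 counts a barcode, which left 61756 of 104074 peaks tested at P5 and 76606 of 128484 at 12W, they were 3382 and 2354 at P5, 20466 and 15959 at 12W, 2650 and 674 in both, and 8073 and 3968 between ages. With glial barcodes they were 12343 and 12360 at 12W, and 4535 higher in both. With 1 count per barcode and peak they were 6912 and 4823 at P5, 6016 and 1521 in both, and 7091 and 3050 between ages. With 5 expected counts 15957 were lower at P5 and 4959 in both. With at least 100 counts and 100 UMIs the correlations of activity and RNA were 0.53 at P5 and 0.57 at 12W.

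Chosen after seeing the data, 100 expected counts gave 2586 and 1969 at P5, 15889 and 15313 at 12W, 2334 and 604 in both, and 2740 and 930 between ages. Nuclei above 4% against glial barcodes at or under it gave 20089 lower at P5 and 7927 in both. Between ages, nuclei above 4% gave 8928 and 3999, and covered regions 1702 and 1860. Fewer features were tested under the thinning, the stricter filters and the smaller groups. Under the thinning, barcodes were also ranked and chosen again on the thinned counts. The cause of the moved counts was not tested for any setting. With 1 library per age, differences between mice cannot be measured.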
